A study of Mus musculus with 6 samples.

Results

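The TRIM (tripartite motif) genes encode proteins that mostly carry a RING finger, B-box zinc fingers and a coiled coil, followed by a variable C-terminal part. Genes were taken as members where a probe set had a single gene symbol that began with Trim and a number. This gave 58 genes out of 18193 genes with a symbol, measured by 111 of 45037 probe sets, and the brightest probe set of a gene, by its mean on the 6 arrays, stands for it. RefSeq lists 69 such symbols in mouse, and the other 11 are not analysed here. Bone marrow haematopoietic stem cells (HSCs) came from SCL-tTA H2B-GFP mice. In these animals the transactivator tTA-S2 is driven from the endogenous scl locus, and it switches on a histone H2B-GFP fusion through a tetracycline-responsive element. All 6 samples carried both transgenes, were collected after a 170-day chase with doxycycline, and passed the same gate (Lin, CD48 and CD34 negative; Sca1, cKit and CD150 positive). The 3 LRC samples (label-retaining cells) were GFP-positive and the 3 non-LRC samples GFP-negative. Since the label is made only where the scl locus is active, a GFP-negative cell may have diluted the label or may never have carried it. The age of the mice and any pooling of animals are not given in the sources used here.

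Most TRIM proteins are RING-type ubiquitin ligases, which pass ubiquitin from a conjugating enzyme to a target protein. The C-terminal part sets much of what a member does: a PHD finger and bromodomain read chromatin in the TIF1 group, an NHL repeat domain binds RNA or protein partners in the TRIM-NHL group, and a PRY-SPRY domain binds targets in most members of immune defence. Several of the immune members are switched on by interferon, and interferon signalling is known to drive resting HSCs into division. Trim28 and Trim33 are each known from knockout mice to be needed for normal blood formation.

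The promoters of the immune members show how these genes differ from the rest of the family in sequence. The core of the interferon-stimulated response element was taken as GAAA, any 2 bases and GAAA again, or TTTC, any 2 bases and TTTC on the other strand. It was searched in RefSeq promoter windows of the GRCm38.p6 assembly. Each window ran from 250 bases before to 50 bases after an annotated transcription start, and matches were allowed to overlap. A match lay in a window of 3.99% of 27025 genes. Of the 47 TRIM genes with a window, 9 had a match (19.1%), among them 8 of the 11 interferon-inducible or antiviral members with a window. The other 1 was Trim2, and none of the 3 TIF1 genes or the 22 genes outside the named groups had one. Several of the matches lie in near-identical windows of neighbouring genes (below), so these shares count some copied sequence again. A match describes these letters and is not a measured binding site.

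The windows below show where the element lies and how alike the promoters of some neighbouring members are. Each is 50 bases, read 5′ to 3′ on the gene's own strand, with a match in capitals. The Trim21 and Trim26 windows each hold another match that overlaps it and is partly in small letters.
Trim21, chr7:102565440-102565489, minus strand: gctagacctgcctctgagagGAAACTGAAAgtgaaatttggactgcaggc
Trim34a, chr7:104244447-104244496, plus strand: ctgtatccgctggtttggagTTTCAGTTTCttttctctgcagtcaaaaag
Trim5, chr7:104288126-104288175, minus strand: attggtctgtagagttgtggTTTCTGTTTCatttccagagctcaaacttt
Trim12a, chr7:104315456-104315505, minus strand: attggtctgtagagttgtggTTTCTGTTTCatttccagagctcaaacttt
Trim12c, chr7:104353349-104353398, minus strand: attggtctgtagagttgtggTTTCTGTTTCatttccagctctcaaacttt
Trim30a, chr7:104465200-104465249, minus strand: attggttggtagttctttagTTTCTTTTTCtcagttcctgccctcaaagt
Trim30d, chr7:104507861-104507910, minus strand: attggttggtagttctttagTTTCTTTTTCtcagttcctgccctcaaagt
Trim26, chr17:36836966-36837015, plus strand: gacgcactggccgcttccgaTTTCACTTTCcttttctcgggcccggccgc
The Trim5 and Trim12a windows had 0 mismatches over 50 bases, the Trim12c window differed from either by 2, and the Trim30a and Trim30d windows had 0 between them. These genes are part of a run of 11 TRIM genes on chromosome 7 (Trim6, Trim34a, Trim5, Trim12a, Trim34b, Trim12c, Trim30b, Trim30c, Trim30a, Trim30d and the pseudogene Trim30e-ps1), of which 7 are members here. Probe sets of close copies may also take up each other's transcripts, so the values of Trim5, Trim12a, Trim12c, Trim30a, Trim30d and Trim34a are uncertain as to the gene. Probe and transcript sequences were not compared, and promoter windows do not show what the probes bind.

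The arrays hold deposited log2 expression values, so a difference of 1 is 2-fold. Array medians were 4.33 to 4.39, and Pearson correlations between arrays across probe sets were 0.901 to 0.970, lowest for LRC replicate 1. Bacterial and phage hybridization controls, added to each sample, had means of 11.24 on LRC replicate 1 and 11.02 on LRC replicate 3, and of 10.58 to 10.70 on the other 4 arrays. A floor was set at 3.97, the 95th percentile of 81 probe sets for olfactory, vomeronasal and trace amine receptors, which are genes of sensory tissue. Of the gate genes measured, Kit and Slamf1 were above it, Cd48 was below it, and Cd34 was above it on 5 of 6 arrays although the gate was CD34-negative. Its values were 7.43, 6.60 and 5.62 in non-LRC and 2.52, 6.97 and 5.10 in LRC, so that LRC replicate 1 alone was low. Macrophage markers were mostly at the floor (1 of 5 above it). Neutrophil and monocyte markers were all above it (6 of 6), with list means of 5.63 to 6.53 in LRC and 6.30 to 7.64 in non-LRC. Above it were also 4 of 5 markers of megakaryocytes and platelets, 3 of 4 of B cells and 3 of 5 of erythroid cells. For T and NK cells and for endothelial and stromal cells it was 3 of 5 each. Of all genes 66% were above the floor. The part of any of these cell types in the TRIM values was not tested. Fewer cells of a type cannot be told apart from less RNA per cell in such bulk samples.

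TRIM genes were present in HSCs about as often as genes in general. The mean of 38 of 58 members lay above the floor (65.5%), against 66.0% of all 18193 genes. For 33 members every array was above it, for 11 none was, and for 14 some were. The brightness of a probe set depends on its probes, so levels are set against the floor and not against each other. Of the members grouped by role, 11 of 12 interferon-inducible or antiviral genes, 4 of 4 TRIM-NHL genes, 3 of 4 TIF1 genes and both transmembrane genes were above the floor. By contrast 1 of 6 microtubule and muscle genes was (Trim54), and the muscle ligase Trim63 (MuRF1) had a mean of 2.06. Trim10, needed for late erythroid maturation in mouse cells, was at 2.76, 2.61 and 2.59 in non-LRC and 3.01, 2.86 and 2.54 in LRC, all under the floor. The chromosome 17 neighbours Trim15, Trim10, Trim40 and Trim31 all had means under the floor, beside Trim26, which was above it.

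**Figure D1:**
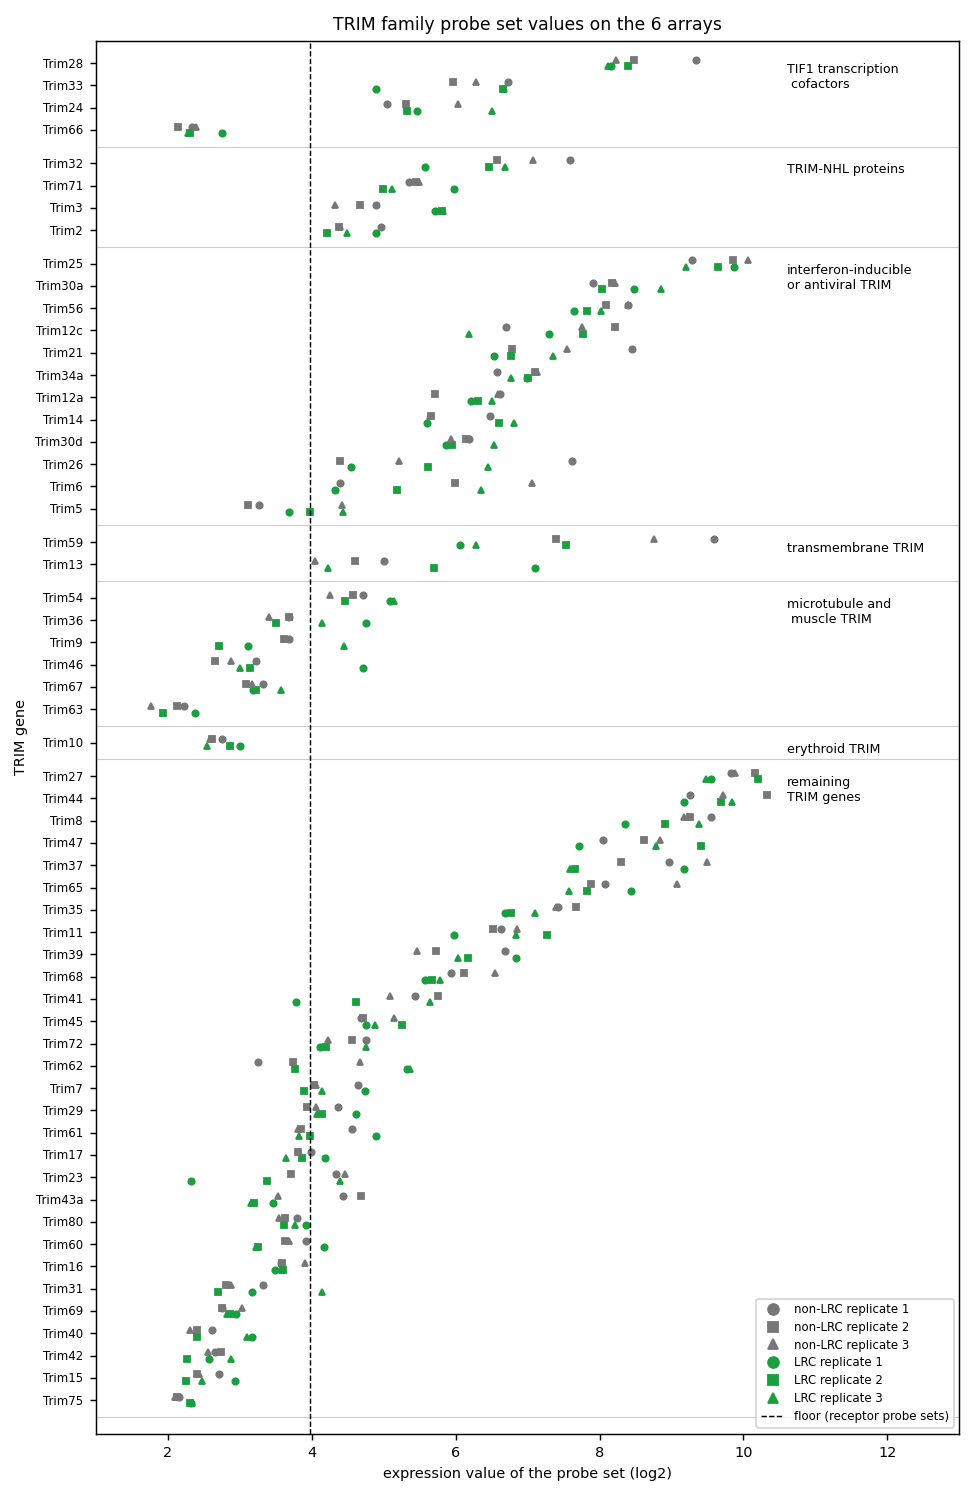
Log2 expression value (x axis) of the 58 TRIM genes (y axis, grouped by role) on each of the 3 non-LRC arrays (grey) and 3 LRC arrays (green), with marker shape for the replicate and a dashed line at the floor of 3.97. The interferon group lies mostly right of the line and the microtubule and muscle group mostly left of it, while grey and green points overlap in most rows.

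No TRIM gene differed between LRC and non-LRC HSCs after adjustment. Limma called 0 of 58 members, as it called 0 of 45037 probe sets (background 0%), with adjusted p-values of 0.998 or 0.999 for the members. At an unadjusted p under 0.05 there were 4 members (Trim3, Trim35, Trim59 and Trim43a), 1 higher and 3 lower in LRC, where 3.75% of all genes reached that level (1.73% higher and 2.02% lower). The groups did not overlap for 6 members, 2 with every LRC value above and 4 with every one below, where 8.32% of all genes were so separated (4.71% above and 3.62% below). The median difference over the 58 members was 0.02, against 0.03 over all genes. Of the members 30 had a higher and 28 a lower mean in LRC, against 9984 and 8209 of all genes. The 38 members above the floor had a median of -0.11 (16 higher and 22 lower). All 12004 genes above it had a median of 0 (6001 higher and 6003 lower). The 20 members at or below the floor had a median of 0.08 (14 higher and 6 lower). These medians and counts were not tested. The median size of a difference, whatever its sign, was 0.23 for the members and 0.20 for all genes. Among genes above the floor it was 0.37 for the members and 0.26 for all. A difference of at least 1 was seen in 3 members (Trim59, Trim3 and Trim13), against 4.45% of all genes. The single genes below are described by values that did not pass the adjusted test.

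**Figure D2:**
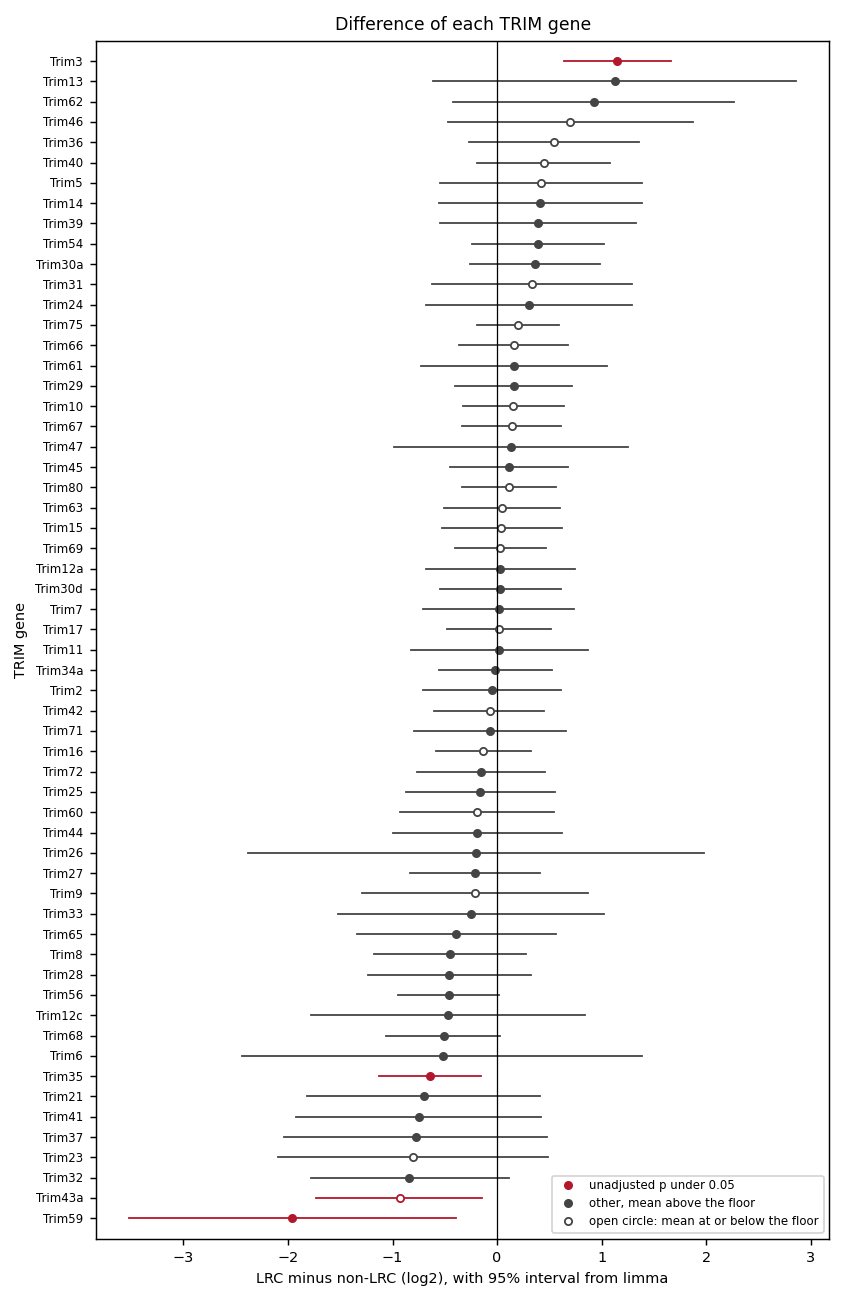
Difference LRC minus non-LRC on the log2 scale (x axis) for each of the 58 TRIM genes (y axis, sorted), with limma's 95% interval; red marks an unadjusted p under 0.05 and open circles a mean at or below the floor. Trim3 lies at the top at 1.15 and Trim59 at the bottom at -1.96, and 54 of the intervals cross 0.

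Trim3 had the smallest p of the family. It encodes a TRIM-NHL ubiquitin ligase best known from the brain. Its values were 4.90, 4.67 and 4.32 in non-LRC and 5.72, 5.81 and 5.82 in LRC. All 3 LRC arrays were above all non-LRC arrays. The difference was 1.15 (SE 0.21, 95% interval 0.64 to 1.66), a 2.22-fold higher level in LRC with an unadjusted limma p of 0.00131 and an adjusted p of 0.998. It was 1.00 to 1.28 when single arrays were left out. The gene has 1 probe set, so no other probe set bears on it.

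The other TRIM-NHL genes did not share this pattern. Trim32, a ligase of muscle proteins whose loss causes a muscular dystrophy in humans, was at 7.59, 6.58 and 7.07 in non-LRC and 5.57, 6.46 and 6.69 in LRC. Its groups overlapped through LRC replicate 3, and the difference was -0.84 (SE 0.39, unadjusted p = 0.0744, adjusted p = 0.998 by limma). It was -0.50 without LRC replicate 1. Trim71, the mammalian counterpart of the worm timing gene lin-41 and a repressor of messenger RNAs in embryonic stem cells, differed by -0.07 (95% interval -0.79 to 0.66). Trim2, a ligase of neurofilament light chain, differed by -0.05 (95% interval -0.71 to 0.61). The sign of both turned when single arrays were left out (-0.38 to 0.12 and -0.23 to 0.15).

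Among TIF1 genes no member had separated groups. Trim28 (KAP1), the corepressor that brings heterochromatin enzymes to KRAB zinc finger proteins, was at 9.34, 8.48 and 8.23 in non-LRC and 8.16, 8.40 and 8.12 in LRC. Non-LRC replicate 1 was the high array, and the difference of -0.46 (95% interval -1.23 to 0.32) was -0.13 without it. The other Trim28 probe set differed by -0.33. Trim33 (TIF1-gamma), which binds Smad proteins and whose loss in mouse blood cells gives a myeloid disease with age, was at 6.73, 5.96 and 6.28 in non-LRC and 4.90, 6.66 and 6.67 in LRC. LRC replicate 1 alone was low at this probe set: the difference was -0.25 with all arrays and 0.34 without that one. The other Trim33 probe sets differed by -0.58 and -0.32, and the mean of all of them by -0.38. Trim24, a coregulator of nuclear receptors, differed by 0.31 (95% interval -0.68 to 1.29) at its brightest probe set, and Trim66 lay under the floor on every array (2.14 to 2.76).

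Trim59 had the largest difference in size. It encodes a transmembrane TRIM protein whose level is raised in many tumours. Its values were 9.59, 7.40 and 8.76 in non-LRC and 6.06, 7.54 and 6.28 in LRC. The groups overlapped, since LRC replicate 2 was above non-LRC replicate 2. The difference was -1.96 (SE 0.65, 95% interval -3.52 to -0.39), a 3.88-fold lower level in LRC, with an unadjusted limma p of 0.0219 and an adjusted p of 0.998. It was -1.45 without non-LRC replicate 1 and -2.55 without non-LRC replicate 2. Without LRC replicates 1 and 3, which leaves the LRC group unreplicated, it was -1.04. The other Trim59 probe set differed by -0.11. Trim13, the other transmembrane member and a ligase of the endoplasmic reticulum, ranged from 4.05 to 5.01 in non-LRC and stood at 7.11, 5.70 and 4.23 in LRC. Its difference of 1.13 (95% interval -0.61 to 2.86) was 0.41 without LRC replicate 1 and 1.86 without LRC replicate 3.

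**Figure D3:**
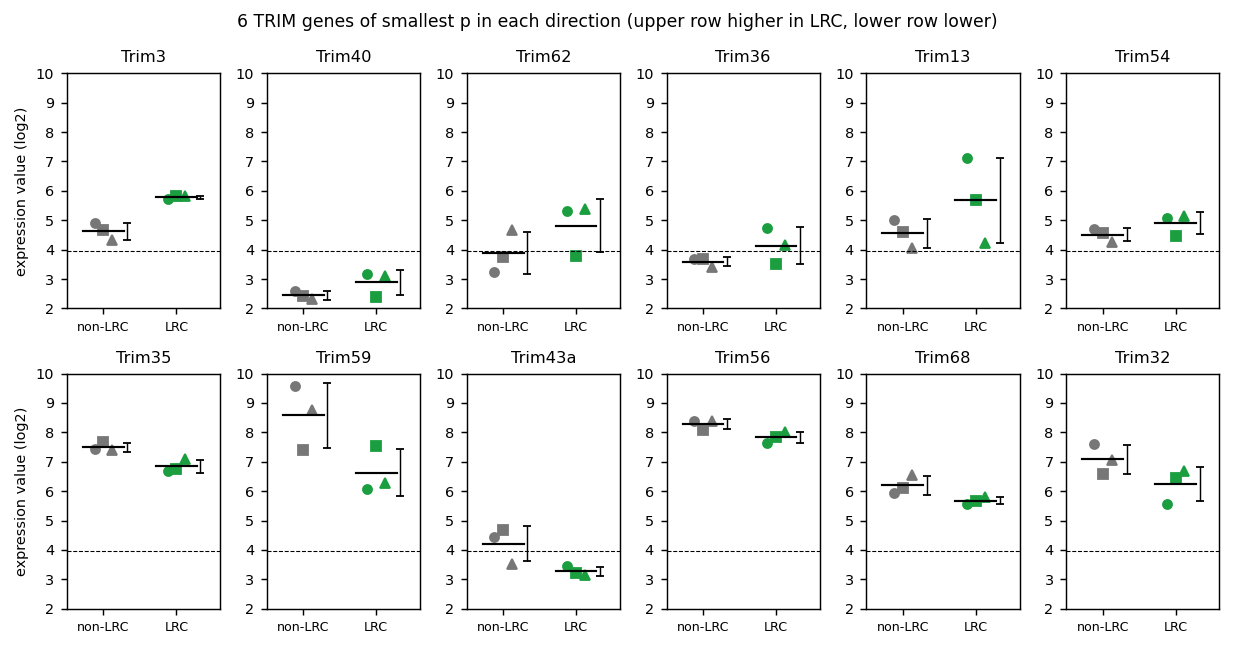
Log2 expression values (y axis) of the 6 TRIM genes of smallest p in each direction in non-LRC (grey) and LRC (green), 3 arrays each with marker shape for the replicate, a bar at the mean, an error bar of 1 SD and a dashed line at the floor. Trim3, Trim35, Trim43a, Trim56 and Trim68 have separated groups, and in Trim40, Trim62, Trim36 and Trim54 LRC replicate 2 (square) is the lowest LRC value.

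Lower values in LRC with separated groups were found for 4 members. Trim35, first described as HLS5 in a haematopoietic lineage switch, was at 7.42, 7.67 and 7.39 in non-LRC and 6.68, 6.77 and 7.10 in LRC, a difference of -0.64 (SE 0.20, unadjusted p = 0.0180, adjusted p = 0.998 by limma). Of its 2 other probe sets 1 differed by -0.41 and 1 by 0.34, and the mean of all of them by -0.24. Trim56, an antiviral ligase, was at 8.39, 8.09 and 8.40 against 7.64, 7.83 and 8.02, a difference of -0.46 (95% interval -0.95 to 0.02). Trim68, known in human cells as a ligase that acts on the androgen receptor, was at 5.93, 6.11 and 6.55 against 5.57, 5.67 and 5.79, a difference of -0.51 (95% interval -1.06 to 0.03) that was -0.34 without non-LRC replicate 3. Trim43a, of a family expressed in the early mouse embryo, was at 4.43, 4.68 and 3.53 against 3.46, 3.20 and 3.16. All its LRC values lay below the floor, so the size of its difference of -0.93 (SE 0.33) is uncertain.

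The second member with every LRC value above every non-LRC value was Trim75, at 2.10 to 2.15 in non-LRC and 2.31 to 2.34 in LRC, far below the floor. The genes that followed Trim3 by p in this direction were Trim40, Trim62, Trim36, Trim13 and Trim54. In 4 of them the higher LRC values were those of LRC replicates 1 and 3, the arrays with brighter hybridization controls. Trim62, a regulator of epithelial polarity, was at 5.32, 3.77 and 5.37 in LRC against 3.25 to 4.67 in non-LRC. Its 2 other probe sets differed by -0.25 and -0.18, and the mean of all of them by 0.17. Trim36, a microtubule-associated ligase, was at 4.75, 3.51 and 4.15 against 3.41 to 3.69. Trim54 (MuRF3) was at 5.09, 4.47 and 5.15 against 4.26 to 4.71, and Trim40, a gut-enriched member, at 3.17, 2.40 and 3.10 against 2.31 to 2.61, under the floor. Without LRC replicates 1 and 3 the 4 differences were -0.12 for Trim62, -0.08 for Trim36, -0.04 for Trim54 and -0.04 for Trim40, against 0.93, 0.54, 0.39 and 0.45 with all arrays. That leaves only LRC replicate 2, the lowest LRC array in all of them, so smaller differences follow from how they were picked. A link to the hybridization controls was not tested.

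The interferon-inducible or antiviral members were well expressed and did not shift together. Of 12 measured, 0 were called, 5 had a higher and 7 a lower mean in LRC, and the median difference was -0.09. The list mean per array was 6.42 to 6.96 in LRC and 6.60 to 7 in non-LRC. Trim25, the ligase that activates the RNA sensor RIG-I, was at 9.28, 9.85 and 10.06 in non-LRC and 9.87, 9.64 and 9.20 in LRC, with a difference of -0.16 (95% interval -0.87 to 0.55). Trim30a, a mouse regulator of inflammatory signalling, was at 7.91, 8.17 and 8.21 against 8.48, 8.04 and 8.85. Its difference was 0.36 (95% interval -0.26 to 0.98) and its other probe set differed by 0.67.

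Trim21, the cytosolic antibody receptor whose promoter carries overlapping matches (above), was at 8.45, 6.78 and 7.55 in non-LRC and 6.53, 6.77 and 7.36 in LRC. The groups overlapped and the difference was -0.70 (95% interval -1.82 to 0.41). It was -0.28 without non-LRC replicate 1, the high array, and -1.11 without non-LRC replicate 2. Its other probe set was at 6.43, 7.17 and 7.46 in non-LRC and 3.61, 6.76 and 3.94 in LRC. There LRC replicates 1 and 3, the arrays with bright controls, were low, and the difference was -2.25 (SE 0.85, unadjusted p = 0.0357, adjusted p = 0.998 by limma). Both probe sets thus had a lower LRC mean.

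The remaining immune members had wide intervals around 0. Trim14, an adaptor on mitochondria, differed by 0.41 (95% interval -0.56 to 1.39), and Trim6, which makes free ubiquitin chains in interferon signalling, by -0.52 (-2.44 to 1.39). Trim26 ranged most widely within non-LRC, from 4.39 to 7.62, and differed by -0.20 (-2.38 to 1.98). Among the mouse relatives of the primate restriction factor TRIM5, Trim12a differed by 0.03 (-0.68 to 0.75), Trim34a by -0.02 (-0.56 to 0.53), Trim30d by 0.03 (-0.55 to 0.61) and Trim12c by -0.47 (-1.78 to 0.84). At its other probe set Trim12a differed by 0.76, Trim6 by 0.33, Trim30d by 0.24 and Trim34a by 0.13. That of Trim14, under the floor, differed by 0.16, and those of Trim12c and Trim26 are given below. Probe sets shared by Trim34a and Trim34b differed by -0.38 and -0.39, and 1 shared by Trim30a and Trim30d by 0.32. Intervals this wide do not show that levels were equal.

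Different probe sets of a TRIM gene often disagreed. Of 31 members with several, all others had the sign of the brightest in 16, some in 8 and none in 7. These counts include probe sets under the floor, and among the 7 all those of Trim16 and Trim60 lay under it. The same shares over all genes were not computed. Over all 111 probe sets, 7 had an unadjusted p under 0.05 (5 lower and 2 higher in LRC, against 3.71% of all probe sets), and 0 were called. The groups were separated in 8.11% of the 111. That share was not computed over all probe sets, and over all genes, each by its brightest probe set, it was 8.32%. Trim24 differed by 1.84 (SE 0.74) at 1 probe set and by -0.38 at another, beside 0.31 at the brightest. Trim12c differed by -0.47 and 0.64, and Trim26 by -0.20 and 0.46. Trim37, a centrosome regulator, differed by -0.78 at the brightest and -1.08 (SE 0.41) at the dimmest one, and by -0.28, -0.19 and 0.41 at the other 3. The brightest probe sets of Trim27, Trim44 and Trim8, all far above the floor, differed by -0.21, -0.19 and -0.45, and lower LRC means were also seen in 4 of 5, 2 of 2 and 1 of 2 further probe sets. The further probe set of Trim27 with a higher LRC mean differed by 0.26, every LRC value being above every non-LRC value. That of Trim8 differed by 0.03. Of the 5 further probe sets of Trim27, 2 lay below the floor.

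**Figure D4:**
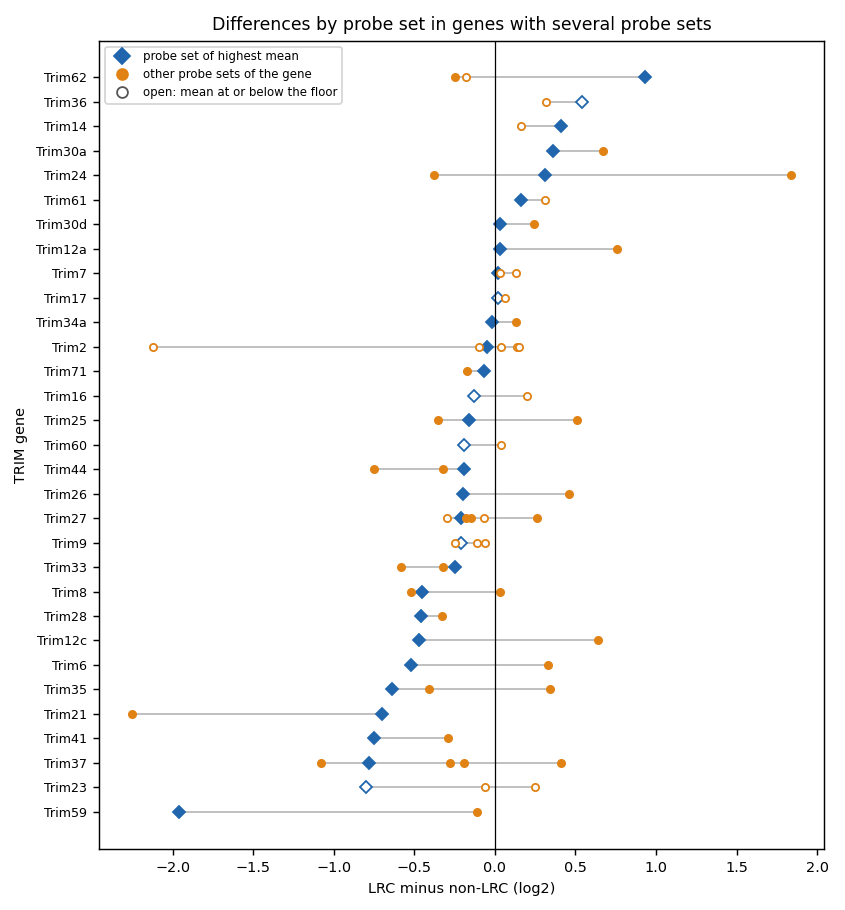
Difference LRC minus non-LRC on the log2 scale (x axis) for every probe set of the 31 TRIM genes that have several (y axis, sorted by the brightest); blue diamonds are the probe set of highest mean, orange circles the others, and open symbols lie at or below the floor. The points of Trim24, Trim12c, Trim6, Trim62 and Trim37 fall on both sides of 0, while those of Trim21, Trim28, Trim33 and Trim44 fall on 1 side.

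Genes that work with TRIM proteins were compared in the same fit, and 0 members of any list were called. Of all 18193 genes, 9984 had a higher and 8209 a lower mean in LRC, and 8.32% had separated groups. The counts by list here and below are descriptions and were not tested against these. Of the 12 partners of Trim28 in silencing, 7 had a lower mean in LRC, with a median difference of -0.13. Setdb1, the histone H3K9 methyltransferase that Trim28 recruits, was at 8.21 in non-LRC and 7.24 in LRC with separated groups, a difference of -0.97 (SE 0.36, unadjusted p = 0.0339, adjusted p = 0.998 by limma). The mean of its 3 probe sets differed by -0.32, and without LRC replicates 1 and 3 the difference was -0.56. Chd4, a remodeller of the NuRD complex, differed by -0.36 (SE 0.21), and by -0.03 without those 2 arrays. Of the 6 measured partners of Trim33 and Trim24, 5 had a lower mean, with Ski at -0.82 (SE 0.58) and Skil at -0.79 (SE 0.82), both repressors of Smad signalling. Without LRC replicates 1 and 3 these turned to 0.38 and 0.74.

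In the RNA-sensing pathway that Trim25 feeds, 6 of 9 measured genes had a higher mean in LRC, with a median difference of 0.32. Irf3, the transcription factor at its end, differed by 0.62 (SE 0.22, unadjusted p = 0.0310, adjusted p = 0.998 by limma), and Tbk1, the kinase that activates it, by 0.75 (SE 0.28, unadjusted p = 0.0351). Both had every LRC value above every non-LRC value, and 1 of 3 further probe sets of Irf3 and 1 of 1 of Tbk1 also had a higher LRC mean. Without LRC replicates 1 and 3 the differences were 0.25 for Irf3 and 0.27 for Tbk1, and with the hybridization control level in the fit they were 0.33 for each. The control level was highest on LRC replicates 1 and 3, so that fit cannot fully part it from the group. The mean of all probe sets differed by 0.23 for Irf3 and 0.88 for Tbk1. The sensor Rigi itself, listed as Ddx58, differed by -0.90 (SE 0.65). Type I interferon signalling genes had 6 of 13 at a higher mean, with Irf1, a factor that binds the same promoter element, at 0.53 (SE 0.21) and the receptor chain Ifnar2 at -1.03 (SE 0.58). Without LRC replicates 1 and 3 the differences were 0.87 for Irf1 and -0.08 for Ifnar2.

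Of 11 ubiquitin-conjugating enzymes used by TRIM ligases, 7 had a lower mean in LRC, with a median difference of -0.10. Ube2d3 differed by -0.30 (SE 0.17) and Ube2e2 by -0.77 (SE 0.45), which was 0.13 without LRC replicates 1 and 3. Among TRIM proteins whose genes have other names, Pml, the core of nuclear bodies, was the 1 of 4 above the floor. The microtubule-binding Mid2 differed by 0.61 (SE 0.40) and its paralogue Mid1 by -0.58 (SE 0.62), both with means under the floor.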

How the data were processed

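The members and gene lists were chosen with earlier results of these data known. Per the labels' protocols, total RNA was isolated with a PicoPure kit, amplified in 2 rounds with a WT-Ovation Pico system, biotin-labelled and hybridized, 1 array per sample. The deposited table gives a log2 value for each probe set and array. RMA is named in the submitters' processing notes without a version, and the log base was read from the range of the values. Such values show no change in total RNA per cell, and the number of arrays limits the precision; read depth does not apply.

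Of 45101 probe sets, 64 controls were left out; of the rest, 34945 had 1 symbol in the platform annotation, 932 several and 9160 none. Symbols were updated by gene identifier to RefSeq (GRCm38.p6), giving 18193 genes. LRC minus non-LRC was fitted with limma 3.58.1 in R 4.3.3 over all 45037 probe sets, without covariate, with Benjamini-Hochberg adjustment and a threshold of 0.05, and was tested on simulated data first. Errors are moderated standard errors. Replicates are described as independent samples, per the labels. Array values, their range or a difference were given for the 6 genes of smallest p in each direction and for the TIF1, TRIM-NHL and erythroid lists. The same holds for interferon-list members above the floor and for 2 genes of each partner list by smallest p. Other members were named for level, separation or probe set disagreement. Trim75, Trim37 and Rigi were named after their values were seen. Listed genes that no probe set names alone are not analysed here.

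Alternatives were another normalization, a filter, moderation, array weights, the replicate block, the control covariate, left-out arrays, other thresholds and floors, and other choices of probe set. Same-numbered LRC and non-LRC arrays had residual correlations of 0.08, 0.141 and 0.081, not all over 0.1, so the numbers were not taken to pair the samples. Columns of other samples numbered 0.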

Additional observations from a re-analysis of the deposited data

How the results depend on the processing

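Limma called 0 TRIM genes and 0 probe sets under every alternative that used its adjusted p, also with the limit raised to 0.1. Requiring instead an unadjusted p under 0.05 and at least a 2-fold change gave 2 of 58 TRIM genes (Trim3 and Trim59) and 774 of 45037 probe sets. These counts are in unlike units. Over 41 named genes and their alternatives the lowest adjusted p was 0.592. The 3 arrays a group limit what could be called, to a degree that differs by gene with its standard error, and low signal limits the 20 members at or below the floor.

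The count of TRIM genes at an unadjusted p under 0.05, 4 with all arrays, was 2 with the hybridization control covariate and 3 to 7 when single arrays were left out (7 without LRC replicate 2 and 7 without LRC replicate 3). With the replicate block it was 3, no gene was called and the median difference was 0.02. After group means were taken off, the residuals of every array correlated best with its own number in the other group. These correlations were weak (0.08 to 0.141) and are a hint from the data, not the design. The count of TRIM genes with separated groups, 6 with all arrays, was 10 to 15 with any 1 array left out, where fewer arrays make separation easier. Shares over all genes were not computed with these settings, so neither count can be set against a background. Without LRC replicates 1 and 3, which leaves the LRC group unreplicated, the median difference was -0.10. Members above the floor numbered 29 to 39.

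Of the named TRIM genes, 12 kept their sign under all alternatives, among them Trim3, Trim59, Trim35 and Trim21, and 17 did not; the cause was not tested. Without LRC replicates 1 and 3, signs turned for Trim40 (-0.04), Trim54 (-0.04), Trim30a (-0.06), Trim36 (-0.08), Trim62 (-0.12), Trim24 (-0.13), Trim30d (-0.14), Trim34a (0.07), Ube2e2 (0.13), Trim12c (0.22), Trim33 (0.33), Ski (0.38) and Skil (0.74). With the control covariate, which is partly confounded with the group, they turned for Trim30d (-0.01), Trim66 (-0.04), Trim36 (-0.07), Trim12c (0.02), Ski (0.06), Trim34a (0.08), Trim33 (0.45) and Skil (0.82). With the mean of all probe sets they turned for Mid1 (0.01), Trim34a (0.06), Ski (0.07), Trim12c (0.08) and Trim26 (0.13), with array weights for Trim33 (0.09) and Trim26 (0.49), and with a second quantile normalization for Trim34a (0.01). Leaving out single arrays gave ranges across 0 for Trim24 (-0.06 to 0.59), Trim33 (-0.55 to 0.34), Trim2 (-0.23 to 0.15), Trim71 (-0.38 to 0.12), Trim6 (-1.23 to 0.10), Trim12a (-0.26 to 0.19), Trim25 (-0.39 to 0.03), Trim26 (-0.88 to 0.73), Trim30d (-0.18 to 0.15), Trim34a (-0.19 to 0.08) and Mid1 (-1.17 to 0.10).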
